A study of Mus musculus with 47 samples.

Results

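Secondary induced pluripotent stem (iPS) cells were set against feeder fibroblasts, both from a mouse reprogramming series measured by RNA sequencing. The comparison used the 4 libraries titled SC1, SC2, SC3 and SC4 with the suffix iPS and the 3 libraries titled as feeders, 7 of the 47 libraries in the series. SC iPS cells came from secondary mouse embryonic fibroblasts that had 21 days with doxycycline, the drug given to induce reprogramming, and then 6 days without it. Feeders were mouse embryonic fibroblasts with 0 days of doxycycline. The other 40 libraries held the same SC clones and 4 SI clones at earlier sampling points or after 27 days with the drug. The labels do not spell out SC and SI, nor do they give strain, sex or reprogramming transgenes. Each SC clone gave 1 library, and nothing states that the 3 feeder libraries were separate cultures, so the p-values below measure only the spread between these samples.

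A fibroblast is a mesenchymal cell that secretes collagen and other matrix proteins and pulls on them through actin and myosin. A pluripotent stem cell is epithelial, held to its neighbours by E-cadherin, divides rapidly, and depends on the transcription factors Oct4 (Pou5f1), Sox2 and Nanog. Fibroblasts are also the usual support layer for pluripotent mouse cells, and the labels do not say whether the SC iPS cells were harvested free of such a layer.

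The promoters of 3 genes are shown for the sequence elements known from both ends of the comparison, a marker of the naive state, a core pluripotency factor and a contractile gene. They are RefSeq windows on the GRCm38.p6 assembly, each 300 bases long, from 250 bases before to 50 bases after the start of transcription, written 5′ to 3′. Capitals mark in Zfp42 the octamer of POU factors such as Oct4 (ATGCAAAT or, on the other strand, ATTTGCAT), in Nanog the hexamer of SOX factors (ACAATG or CATTGT), and in Myl9 the CArG box of serum response factor.
Zfp42, chr8:43306960-43307259, minus strand: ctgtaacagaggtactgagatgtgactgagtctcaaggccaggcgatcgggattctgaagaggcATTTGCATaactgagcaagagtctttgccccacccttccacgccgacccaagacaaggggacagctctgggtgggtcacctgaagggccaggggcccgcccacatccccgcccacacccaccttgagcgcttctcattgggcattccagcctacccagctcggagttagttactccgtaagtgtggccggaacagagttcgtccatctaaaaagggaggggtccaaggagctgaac
Nanog, chr6:122707239-122707538, plus strand: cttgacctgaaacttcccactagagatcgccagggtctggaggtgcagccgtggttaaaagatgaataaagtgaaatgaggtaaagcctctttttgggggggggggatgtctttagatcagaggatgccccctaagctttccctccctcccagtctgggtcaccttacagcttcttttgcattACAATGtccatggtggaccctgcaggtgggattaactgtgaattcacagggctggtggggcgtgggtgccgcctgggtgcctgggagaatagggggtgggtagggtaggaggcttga
Myl9, chr2:156775214-156775513, plus strand: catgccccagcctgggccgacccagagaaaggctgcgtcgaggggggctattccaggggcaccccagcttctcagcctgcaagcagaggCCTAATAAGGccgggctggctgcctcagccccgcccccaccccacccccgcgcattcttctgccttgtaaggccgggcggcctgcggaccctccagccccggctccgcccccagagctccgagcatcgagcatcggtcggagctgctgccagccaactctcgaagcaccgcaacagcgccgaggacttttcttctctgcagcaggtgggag

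The octamer of Zfp42 began 186 bases before the start, the hexamer of Nanog 67 bases before it, and the CArG box of Myl9 161 bases before it. Both strands were searched. The naming rule picked 13 genes from the lists of pluripotency factors and of late genes, and other members named below were not searched. The 13 include Stat3, Myc and Tbx3, which were lower in SC iPS cells, and Klf4, which did not pass. Of the 13, 10 had entries, with 12 promoters. The octamer was in 1 of the 12, against 570 of all 32851 promoters in the table (1.74%). The hexamer was in 3 of the 12 and in 12.6% of all promoters. Of these 3, a pair are overlapping Nanog windows that hold the same site, so there were 2 distinct sites. Among 4 promoters of the contractile genes picked by the same rule, 1 held a CArG box, against 1.63% of all. The hexamer was also in 1 of these 4, that of Cnn1, and the octamer in 0. A match describes letters in this window and is not a binding site.

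Levels are in RPKM, a read density scaled for gene length and for the size of the library. They summed to between 189172 and 214902 in SC iPS libraries, against 239509 to 245695 in feeders, and 11316 to 11639 genes reached 1 RPKM in SC iPS libraries, against 10909 to 10929 in feeders. No read totals were among the sources used here. Steps between low values implied 31.5 to 90.0 megareads in 6 of the 7 libraries, up to a whole multiple, and feeder 1 showed no clear step. Over 5425 genes at 5 RPKM in both groups, the median SD of log2(RPKM + 1) was 0.195 among SC iPS libraries and 0.0646 among feeders.

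The SC2 iPS library stood apart from the other 3. Without it, the median SD among SC iPS libraries was 0.096. Across 4962 genes its values correlated with those of feeder 1 at r = 0.809, whereas those of SC1 did so at 0.626 (a description across genes, which are not independent replicates). For 99 genes of 6 fibroblast lists with at least 5 RPKM in feeders, the level relative to the feeder mean had medians of 0.142, 0.281, 0.116 and 0.124 in SC1 to SC4. SC2 was the highest SC iPS library for 91 of the 99 genes. The ratio varied widely between genes of 1 library. Actg2, a smooth muscle actin, stood at 0.0301, 0.122, 0.0245 and 0.0267 of the feeder mean in SC1 to SC4, whereas Mmp3, a matrix protease, stood at 2.50, 4.38, 1.73 and 1.91. Lars2, the mitochondrial leucyl-tRNA synthetase, measured 1564 RPKM in SC2, against 76.5, 60.5 and 78.3 RPKM in the other SC iPS libraries and 51.2 to 118 RPKM in feeders. Its annotated span includes a repeat derived from ribosomal RNA, so its count is uncertain. In bulk RNA, fewer fibroblasts in a culture and less of their RNA per cell cannot be told apart, and the part of either in the falls below was not tested.

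**Figure D1:**
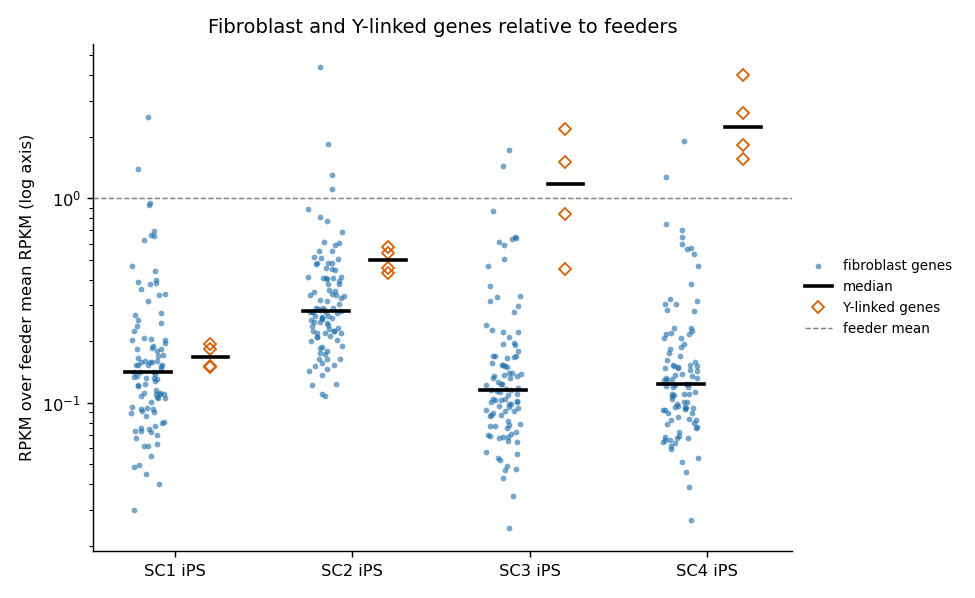
Level of 99 fibroblast genes (dots) and 4 Y-linked genes (diamonds) in each SC iPS library, divided by the mean of the 3 feeder libraries, on a log axis, with medians as bars and the feeder mean as a dashed line. Fibroblast genes have medians between 0.116 and 0.281, highest in SC2, while Y-linked genes have medians between 0.168 in SC1 and 2.23 in SC4.

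Most genes differed between the groups. Of 22632 genes, 12210 had at least 1 RPKM in at least 3 of the 7 libraries and were tested with limma on log2(RPKM + 1), and 9760 of them (79.9%) passed a Benjamini-Hochberg adjusted p of 0.05. In SC iPS cells 5026 genes (41.2%) were higher and 4734 (38.8%) lower. Differences of at least 2-fold were fewer, with 2523 genes higher (20.7%) and 2220 lower (18.2%). These shares are the background against which each group of genes is read. The median difference over all genes tested was 0.06. Differences below are SC iPS minus feeder on the log2(RPKM + 1) scale with their SE, a scale that understates the change of genes low in one group. Without SC2, 10625 genes were called, 5753 higher and 4872 lower, with a median of 0.12.

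Regulators of pluripotency rose in SC iPS cells. All 20 transcription factors of this list were tested, and 16 rose, 3 fell and 1 did not pass, with a median difference of 4.02, against 41.2% higher and 38.8% lower over all genes tested. Pou5f1 had 383, 239.8, 376 and 406 RPKM in SC1 to SC4 iPS cells, against 0.66, 0.03 and 0.03 RPKM in feeders (8.16 ± 0.23, adjusted p = 1.09e-07). Sox2, the partner of Oct4 on DNA, had 118, 64.8, 90.7 and 79.2 RPKM in SC1 to SC4 iPS cells, against 0.26, 0.16 and 0.11 RPKM in feeders (6.21 ± 0.18, adjusted p = 1.4e-07). Nanog, the homeobox factor, had 107, 61.3, 126 and 114 RPKM in SC1 to SC4 iPS cells, against 0.10, 0.14 and 0.09 RPKM in feeders (6.49 ± 0.22, adjusted p = 2.91e-07). SC2 was the lowest of the 4 SC iPS libraries for each of these 3 factors, and no feeder came near any of them. Zfp42 (Rex1), a zinc-finger protein that marks the naive state, had 126, 80.3, 115 and 93.2 RPKM in SC1 to SC4 iPS cells, against 0.04, 0 and 0 RPKM in feeders (6.67 ± 0.15).

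Factors of the naive network rose as well. For several of them SC1 was highest, as it was for Sox2 and Zfp42, but SC4 rather than SC2 was lowest. Esrrb, an orphan nuclear receptor, had 42.6, 21.2, 25.9 and 20.7 RPKM in SC1 to SC4 iPS cells, against 0.01, 0 and 0.01 RPKM in feeders (4.77 ± 0.23, adjusted p = 1.2e-06). Tfcp2l1, a transcription factor of the same network, had 37.9, 21.00, 19.99 and 16.4 RPKM in SC1 to SC4 iPS cells, against 0.09, 0.14 and 0.07 RPKM in feeders (4.43 ± 0.24). SC1 was the highest SC iPS library for both, and so it was for Tcl1, a cofactor of the kinase Akt (26.3, 11.4, 12.8 and 10.3 RPKM in SC1 to SC4), and for the nuclear receptor Nr0b1 (24.2, 17.6, 15.7 and 11.04 RPKM). Sall4, a zinc-finger factor, varied little between clones, at 26.9 to 36.1 RPKM in SC iPS cells, against 0 to 0.01 RPKM in feeders.

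The reprogramming factors other than Oct4 and Sox2 did not rise. Klf4 had 14.7, 12.04, 12.3 and 10.1 RPKM in SC1 to SC4 iPS cells, against 14.3, 15.1 and 13.7 RPKM in feeders, and the groups overlapped (-0.22 ± 0.12, adjusted p = 0.126). Without SC1 it passed as lower (-0.30, adjusted p = 0.0322). Myc fell, with 13.2, 16.3, 12.5 and 15.4 RPKM in SC1 to SC4 iPS cells, against 22.3, 25.1 and 22.6 RPKM in feeders (-0.67 ± 0.11, adjusted p = 0.000556). Its relative Mycn rose, at 25.9 to 46.9 RPKM in SC iPS cells, against 0.10 to 0.14 RPKM in feeders (5.10 ± 0.18). The Krüppel-like factors Klf2 (2.40 ± 0.20) and Klf5 (1.65 ± 0.17) rose too. Stat3, the transducer of LIF signals, fell, at 11.3 to 13.03 RPKM in SC iPS cells, against 25.5 to 27.7 RPKM in feeders (-1.02 ± 0.09), as did the T-box factor Tbx3 (-0.66 ± 0.12). These values do not separate endogenous transcripts from those of a transgene.

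All 20 late and embryonic stem (ES) cell restricted genes rose, with a median difference of 4.66. Dppa5a, an RNA-binding protein of early embryos, had 489, 276, 390.5 and 339.7 RPKM in SC1 to SC4 iPS cells, against 0.06, 0 and 0.02 RPKM in feeders (8.48 ± 0.18, adjusted p = 5.52e-08). Trh, the precursor of thyrotropin-releasing hormone, had 263, 111, 239 and 303 RPKM in SC1 to SC4 iPS cells, against 0.10, 0 and 0.02 RPKM in feeders (7.70 ± 0.31). Tdgf1 (Cripto), a coreceptor of Nodal, had 92.6, 41.2, 136 and 128 RPKM in SC1 to SC4 iPS cells, against 0.02, 0 and 0.01 RPKM in feeders (6.50 ± 0.37). For all 3 genes SC2 was the lowest SC iPS library and far above every feeder. L1td1, an RNA-binding protein derived from a transposon, ran from 113 to 144 RPKM in SC iPS cells, against 0.01 to 0.06 RPKM in feeders. Lin28a, an inhibitor of let-7 processing, ran from 71.6 to 90.6 RPKM in SC iPS cells, against 0 to 0.03 RPKM in feeders. Dppa4, a nuclear protein of pluripotent cells, was listed at 0 in every feeder and at 19.5 to 33.4 RPKM in SC iPS cells. Tdh, the threonine dehydrogenase on which mouse ES cells depend, had 58.7, 30.5, 40.4 and 37.4 RPKM in SC1 to SC4 iPS cells, against 0.02, 0 and 0.02 RPKM in feeders, and Dppa3 (Stella), a protein of germ cells and oocytes, had 31.3, 10.5, 18.5 and 18.99 RPKM in SC1 to SC4 iPS cells, against 0.02, 0 and 0.01 RPKM in feeders. In this list Tex19.1, a suppressor of transposons, and Upp1, a uridine phosphorylase, were higher in SC3 and SC4 than in SC1 and SC2, with 19.9, 12.6, 54.96 and 44.5 RPKM and 92.01, 38.6, 186 and 164 RPKM in SC1 to SC4, and both lie on chromosome 11, which is described below.

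**Figure D2:**
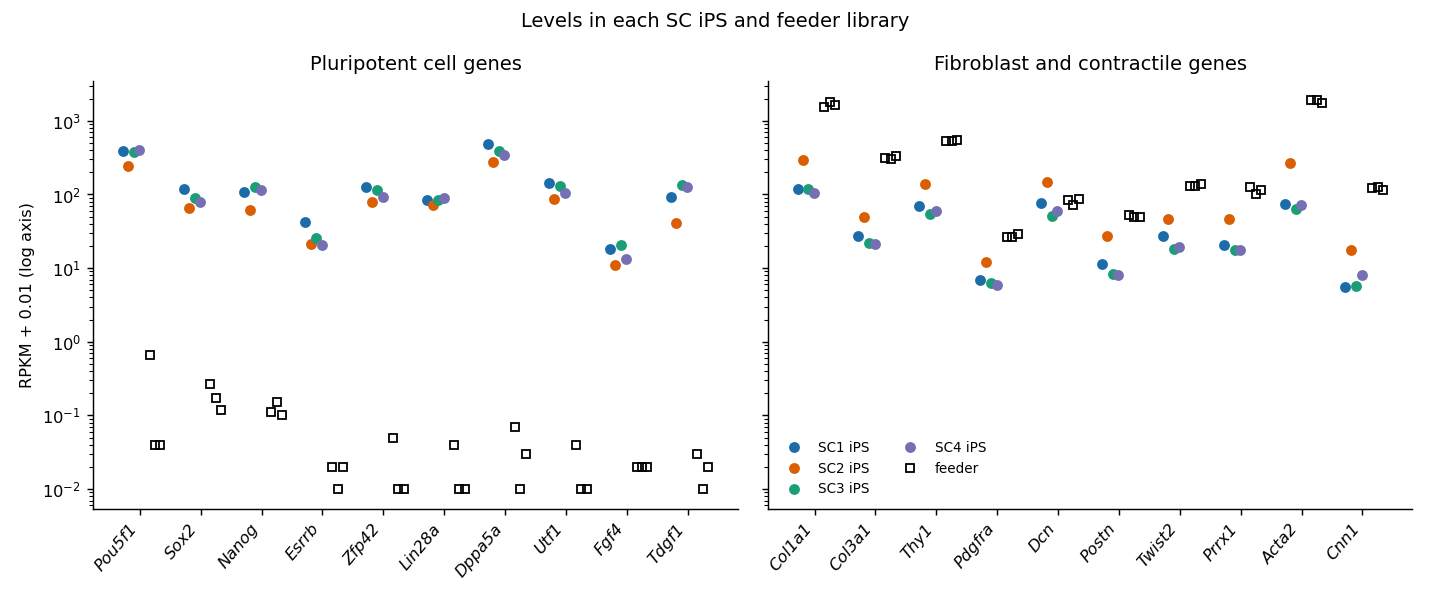
RPKM + 0.01 on a log axis for pluripotent cell genes and for fibroblast or contractile genes in each SC iPS library (coloured circles) and each feeder library (open squares). Pou5f1 lies between 239.8 and 406 RPKM in SC iPS libraries and at no more than 0.66 RPKM in feeders, Acta2 lies between 64.4 and 269 RPKM in SC iPS libraries and between 1724 and 1889 RPKM in feeders. For the fibroblast and contractile genes plotted, other than Dcn, SC2 is the SC iPS library nearest to the feeders.

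Signalling genes went both ways. Among 19 tested genes of LIF, FGF, Nodal and BMP signalling, 8 rose and 6 fell, with a median of 0.13, which is near the shares over all genes tested. Of the ligands, Nodal, a TGF-beta family member, had 15.3, 10.2, 19.9 and 22.3 RPKM in SC1 to SC4 iPS cells and was listed at 0 in all feeders. Its antagonists Lefty1 and Lefty2 reached 46.7 to 119 RPKM and 35.1 to 99.1 RPKM in SC iPS cells, against 0.48 to 0.53 RPKM and 0.01 to 0.04 RPKM in feeders. Fgf4, the autocrine growth factor of ES cells, had 18.03, 10.96, 20.8 and 13.1 RPKM in SC1 to SC4 iPS cells, against 0.01, 0.01 and 0.01 RPKM in feeders (4.01 ± 0.20). The ligand Bmp4 lay at the threshold (0.45 ± 0.19, adjusted p = 0.0526) and passed as higher under 6 alternatives, among them without SC1 (0.0309), SC2 (0.0438) or SC4 (0.027) and with the replicate number as a block (0.0267). Of the receptors, Fgfr1 (-1.62 ± 0.17) and Il6st, the gp130 chain shared by LIF and IL-6 receptors (-1.65 ± 0.13), fell, the LIF receptor Lifr rose (0.73 ± 0.15), and Fgfr2 did not pass (0.13 ± 0.17). The BMP targets Id1, Id2 and Id3 fell, and Id3 had 13.1, 18.4, 10.7 and 13.2 RPKM in SC1 to SC4 iPS cells, against 61.7, 71.6 and 63.1 RPKM in feeders (-2.19 ± 0.16). Etv5, a target of FGF signalling, rose (2.91 ± 0.14), whereas the FGF feedback inhibitors Dusp6 (-0.24 ± 0.12) and Spry2 (-0.29 ± 0.14) did not pass. Both passed as lower without SC2 (adjusted p = 0.0083 for Dusp6 and 0.00483 for Spry2), and Spry2 also did with a separate variance for each group (0.0326).

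Epithelial junction genes rose in every case tested, 17 of 17, with a median of 2.37. Cdh1, which encodes E-cadherin, had 59.2, 28.1, 60.8 and 60.96 RPKM in SC1 to SC4 iPS cells, against 0.18, 0.07 and 0.10 RPKM in feeders (5.51 ± 0.26, adjusted p = 1.13e-06). Epcam, an epithelial adhesion molecule, had 55.9, 23.6, 66.6 and 65.4 RPKM in SC1 to SC4 iPS cells, against 0.10, 0.06 and 0.04 RPKM in feeders (5.55 ± 0.33, adjusted p = 2.96e-06). SC2 was the lowest SC iPS library for both, and the other 3 lay close together. Cldn6, a claudin of embryonic epithelia, rose by 4.46 ± 0.37 and the protease inhibitor Spint2 by 3.89 ± 0.27. Among regulators and keratins, 7 of 8 tested rose, including the splicing factor Esrp1, listed at 0 in all feeders and at 6.95 to 13.6 RPKM in SC iPS cells, and the transcription factors Elf3 (3.93 ± 0.40) and Grhl2 (2.96 ± 0.14). Krt19, a simple epithelial keratin, did not pass, with 4.04, 1.41, 7.07 and 5.76 RPKM in SC1 to SC4 iPS cells, against 3.92, 4.1 and 3.45 RPKM in feeders (0.08 ± 0.36, adjusted p = 0.854), but did so without SC2 (0.43, adjusted p = 0.0305). The mean level of the 19 junction genes found was 2.62 ± 0.54 in SC iPS cells (log2(RPKM + 1), SD, n = 4) and 0.20 ± 0.01 in feeders (n = 3). In the other 40 libraries it ran from 1.40 to 4.73.

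The fibroblast programme fell. Over 6 lists (collagens, matrix glycoproteins, matrix proteases, contractile cytoskeleton, surface and growth factor genes, and mesenchymal transcription factors) 106 members were tested, of which 102 fell, 2 rose and 2 did not pass, with a median of -2.40. Without SC2, 104 fell and the median was -2.64. Mesenchymal transcription factors fell in 18 of 18 cases. Snai2 (Slug), a repressor of E-cadherin, had 2.56, 6.89, 2.44 and 2.96 RPKM in SC1 to SC4 iPS cells, against 21.4, 20.5 and 19.8 RPKM in feeders (-2.29 ± 0.27, adjusted p = 6.81e-05). The homeobox factor Prrx2 had 2.83, 3.43, 2.22 and 2.71 RPKM in SC1 to SC4 iPS cells, against 20.9, 23.5 and 18.8 RPKM in feeders (-2.54 ± 0.13). Twist2, a basic helix-loop-helix factor, stayed readily measured, at 18.2 to 46.4 RPKM in SC iPS cells, against 130.2 to 139 RPKM in feeders (-2.32 ± 0.29). The naming rule took these 3 factors from genes whose groups did not overlap, so that separation was set by the choice. SC2 was the highest SC iPS library for each of the 3.

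Collagens fell in 17 of 18 cases, with a median of -3.00. Col1a1, a chain of the main fibrillar collagen, had 119, 289.9, 119 and 105 RPKM in SC1 to SC4 iPS cells, against 1550.2, 1783 and 1627 RPKM in feeders (-3.51 ± 0.33, adjusted p = 2.2e-05). The fibrillar chains Col5a2 (-3.76 ± 0.37), Col5a1 (-3.47 ± 0.28) and Col3a1 (-3.44 ± 0.27) fell by similar amounts. The exception was Col18a1, a basement membrane collagen, which rose, with 53.4, 42.5, 55.2 and 48.7 RPKM in SC1 to SC4 iPS cells, against 35.6, 39.2 and 40.3 RPKM in feeders (0.37 ± 0.11, adjusted p = 0.0161), although without feeder 1 it did not pass (0.32, adjusted p = 0.0701). Of 19 matrix glycoproteins 17 fell, among them fibronectin (Fn1), at 266 to 481 RPKM in SC iPS cells, against 1546 to 1870.1 RPKM in feeders. The small leucine-rich proteoglycans Dcn and Lum did not pass. Dcn had 76.5, 148, 51.2 and 60.1 RPKM in SC1 to SC4 iPS cells, against 84.4, 71.1 and 85.7 RPKM in feeders (-0.06 ± 0.32, adjusted p = 0.876). Without SC2 both passed, Dcn at -0.37 (adjusted p = 0.0381) and Lum at -0.89 (adjusted p = 0.000484). SC2 had more Dcn than any feeder, so the groups overlapped.

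Matrix proteases and their inhibitors fell in 15 of 16 cases. Mmp3 (stromelysin) rose, with 263, 460.3, 182 and 201 RPKM in SC1 to SC4 iPS cells, against 106, 95.2 and 115 RPKM in feeders (1.29 ± 0.29, adjusted p = 0.00317). Timp3, an inhibitor of matrix proteases, fell by 3.38 on the log2 scale. On the surface all 19 tested genes fell. Thy1, a fibroblast marker, had 68.8, 140.3, 54.2 and 59.1 RPKM in SC1 to SC4 iPS cells, against 530.3, 540.0 and 543 RPKM in feeders (-2.83 ± 0.30, adjusted p = 3.77e-05). Cdh2 (N-cadherin), the mesenchymal counterpart of Cdh1, had 2.66, 5.19, 2.47 and 3.61 RPKM in SC1 to SC4 iPS cells, against 12.7, 13.2 and 12.5 RPKM in feeders (-1.66 ± 0.19). The receptor Pdgfrb (-2.71 ± 0.30) and the cytokine Csf1 (-2.99 ± 0.39) fell further than Cdh2 by these estimates, which were not tested against each other.

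Contractile genes fell in 16 of 16 cases, with a median of -2.76. Acta2, smooth muscle alpha-actin, had 73.9, 269, 64.4 and 71.4 RPKM in SC1 to SC4 iPS cells, against 1889, 1889 and 1724 RPKM in feeders (-4.21 ± 0.46, adjusted p = 4.35e-05). Actg2 had 4.97, 20.2, 4.05 and 4.42 RPKM in SC1 to SC4 iPS cells, against 172, 167 and 157 RPKM in feeders (-4.44 ± 0.46, adjusted p = 3.38e-05). SC2 lay between the other SC iPS libraries and the feeders for both actins. Myl9, the regulatory myosin light chain whose promoter is printed above, had 27.6, 73.2, 22.1 and 28.2 RPKM in SC1 to SC4 iPS cells, against 407, 410.2 and 363 RPKM in feeders (-3.51 ± 0.36), and the calponin Cnn1 fell alongside it (-3.74 ± 0.33). All 19 genes of TGF-beta, YAP and serum response factor signalling fell too, with a median of -2.16. Ccn2, connective tissue growth factor, had 31.8, 68.3, 37.1 and 33.5 RPKM in SC1 to SC4 iPS cells, against 467, 471 and 434 RPKM in feeders (-3.46 ± 0.25). The ligand Tgfb3 fell (-3.43 ± 0.21), and the receptor Tgfbr1 fell least of the list (-0.24 ± 0.09, adjusted p = 0.0293). Tgfbr1 did not pass without SC3 (adjusted p = 0.0544), SC4 (0.0508), feeder 1 (0.129) or feeder 3 (0.0898).

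Genes of cell division were higher in SC iPS cells than in feeders, 33 of 34 tested genes of S phase and mitosis, with a median of 2.52. The titles of the feeder libraries do not say whether these cells were dividing. The part of this in these differences, and in those of the inhibitors below, was not tested. Mcm3, a subunit of the replicative helicase, had 167, 111, 165 and 165 RPKM in SC1 to SC4 iPS cells, against 9.38, 9.64 and 8.42 RPKM in feeders (3.90 ± 0.16, adjusted p = 5.53e-07). Mybl2, a transcription factor of proliferating cells, had 55.1, 33.8, 48.05 and 37.2 RPKM in SC1 to SC4 iPS cells, against 0.61, 0.84 and 0.59 RPKM in feeders (4.71 ± 0.17). The spindle checkpoint kinase Ttk rose (3.29 ± 0.16), as did Ccne1, cyclin E1 (3.05 ± 0.11). SC2 was the lowest SC iPS library for Mcm3, Mybl2 and Ttk. The gene that did not pass was E2f1, an S phase transcription factor, with 8.89, 7.43, 9.3 and 8.92 RPKM in SC1 to SC4 iPS cells, against 7.83, 8.98 and 8.41 RPKM in feeders (0.03 ± 0.10, adjusted p = 0.778).

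Several inhibitors of division moved the opposite way. In the list of cyclin-dependent kinase inhibitors and p53 targets, 11 of 16 fell and 1 rose, with a median of -0.89. Over all genes tested 38.8% were lower and 41.2% higher. At least 2-fold falls were seen in 8 of the 16, against 18.2% of all genes tested. Cdkn1a (p21) had 43.9, 65.5, 35.7 and 38.9 RPKM in SC1 to SC4 iPS cells, against 206, 212 and 202 RPKM in feeders (-2.18 ± 0.19, adjusted p = 1.68e-05). Cdkn2a, which encodes p16 and p19, had 12.3, 15.5, 8.27 and 9.48 RPKM in SC1 to SC4 iPS cells, against 38.2, 40.1 and 41.4 RPKM in feeders (-1.76 ± 0.19), and its neighbour Cdkn2b (p15) fell by a similar amount (-2.16 ± 0.23). The member that rose was Trp53inp1, a stress protein induced by p53 (0.82 ± 0.13). Cdkn1b (p27) did not pass (-0.06 ± 0.14, adjusted p = 0.709).

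Of 11 tested DNA methylation genes 7 rose and 3 fell, against 41.2% higher and 38.8% lower over all genes tested. Dnmt3b, a de novo methyltransferase, had 64.9, 40.8, 119.6 and 154 RPKM in SC1 to SC4 iPS cells, against 0.15, 0.15 and 0.19 RPKM in feeders (6.19 ± 0.40, adjusted p = 4.42e-06), and SC3 and SC4 lay above SC1 and SC2. Dnmt3l, its catalytically inactive partner, did not follow that order, with 54.5, 44.3, 47.8 and 40.5 RPKM in SC1 to SC4 iPS cells, against 0.78, 0.41 and 0.82 RPKM in feeders (4.84 ± 0.13). Tet1, which oxidises methylcytosine, rose (4.5 ± 0.12), whereas its relative Tet3 fell (-0.79 ± 0.12). Mbd3, a subunit of the NuRD complex, did not pass (-0.04 ± 0.09, adjusted p = 0.692).

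Polycomb genes went both ways, with 13 of 20 higher and 7 lower, against 41.2% and 38.8% over all genes tested. Epop, an accessory subunit of Polycomb repressive complex 2, had 67.4, 52.3, 69.9 and 64.5 RPKM in SC1 to SC4 iPS cells, against 1.58, 1.34 and 1.59 RPKM in feeders (4.68 ± 0.12). The accessory subunits Jarid2 (4.23 ± 0.14) and Mtf2 (3.34 ± 0.13) and the methyltransferase Ezh2 (2.64 ± 0.17) rose too. In complex 1 the chromobox protein Cbx7 had 16.9, 9.61, 15.3 and 15.7 RPKM in SC1 to SC4 iPS cells, against 0.22, 0.19 and 0.18 RPKM in feeders (3.66 ± 0.18), while Cbx6 and Cbx8 fell. Bmi1, a complex 1 subunit that represses Cdkn2a, had 1.2, 2.65, 0.85 and 0.90 RPKM in SC1 to SC4 iPS cells, against 6.11, 5.74 and 5.41 RPKM in feeders (-1.55 ± 0.22). Of the polyhomeotic subunits, Phc1 rose (3.97 ± 0.24) and Phc2 fell (-1.63 ± 0.12).

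Hox genes, which specify position along the body axis, fell in all 22 cases tested of 39 found in clusters A to D, with a median of -1.15, and 16 fell by at least 2-fold. The other 17 did not reach 1 RPKM in 3 libraries. Hoxb9 had 1.68, 3.81, 1.09 and 1.34 RPKM in SC1 to SC4 iPS cells, against 12.2, 11.3 and 11.5 RPKM in feeders (-2.17 ± 0.26). Hoxc6 had 2.27, 4.44, 1.62 and 1.93 RPKM in SC1 to SC4 iPS cells, against 9.51, 9.94 and 9.85 RPKM in feeders (-1.65 ± 0.23). SC2 was the highest SC iPS library for both. Imprinted genes, expressed from 1 parental allele, had no common direction, with 6 of 15 higher and 8 lower. The shares over all genes tested were 41.2% higher and 38.8% lower. Snrpn (4.40 ± 0.27), Mest (3.6 ± 0.16) and Peg10 (3.33 ± 0.13) rose. Igf2, a fetal growth factor, fell, with 7.5, 13.4, 9.49 and 7.15 RPKM in SC1 to SC4 iPS cells, against 73.2, 71.8 and 73.8 RPKM in feeders (-2.87 ± 0.19), as did the growth suppressor Grb10 (-2.40 ± 0.22).

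In glycolysis 10 of 20 genes rose, 1 fell and 9 did not pass, with a median of 0.53. Over all genes tested 41.2% were higher and 38.8% lower. Without SC2 the number of glycolysis genes that rose was 16. Slc2a3, a glucose transporter, had 92.5, 44.5, 119.6 and 89.8 RPKM in SC1 to SC4 iPS cells, against 0.65, 0.60 and 0.59 RPKM in feeders (5.68 ± 0.29, adjusted p = 1.49e-06). The lactate dehydrogenase subunit Ldhb rose (2.18 ± 0.34), but Ldha did not pass, with 226, 168, 257 and 272 RPKM in SC1 to SC4 iPS cells, against 186, 193 and 201 RPKM in feeders (0.23 ± 0.17, adjusted p = 0.243) except without SC2 (0.38, adjusted p = 0.00293). Of the hexokinases Hk2 rose (1.10 ± 0.17) and Hk1 fell (-0.63 ± 0.10). Pyruvate kinase (Pkm) did not pass, at 477 to 640.3 RPKM in SC iPS cells, against 524 to 582 RPKM in feeders. In one-carbon and glycine metabolism 11 of 16 rose and 2 fell. Gldc, a subunit of the glycine cleavage system, had 45.00, 19.7, 50.5 and 48.6 RPKM in SC1 to SC4 iPS cells, against 0.16, 0.19 and 0.12 RPKM in feeders (5.09 ± 0.29), and its partner Amt rose too (3.66 ± 0.21). Phgdh, the first enzyme of serine synthesis, fell (-0.58 ± 0.14, adjusted p = 0.0044).

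Genes of telomeres and genome maintenance rose in 11 of 11 tested cases, with a median of 2.63, among them the mismatch repair gene Msh6 (3.95 ± 0.15) and Terf1, a telomere-binding protein (3.81 ± 0.17). Tert, the catalytic subunit of telomerase, had 4.59, 2.37, 4.51 and 4.51 RPKM in SC1 to SC4 iPS cells, against 0.75, 1.04 and 0.95 RPKM in feeders (1.36 ± 0.19, adjusted p = 0.00016). Of 12 tested splicing regulators 6 rose and 5 fell, near the shares over all genes tested (41.2% higher and 38.8% lower). Mbnl1, an RNA-binding protein that favours splicing patterns of differentiated cells, had 3.05, 9.69, 2.83 and 2.91 RPKM in SC1 to SC4 iPS cells, against 33.8, 30.3 and 30.7 RPKM in feeders (-2.69 ± 0.34), and its relative Mbnl2 also fell (-1.94 ± 0.25).

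Cytokine and chemokine genes fell in 16 of 18 cases, with a median of -2.05. Cxcl14, a chemokine, had 1.79, 7.7, 1.49 and 1.72 RPKM in SC1 to SC4 iPS cells, against 63.96, 59.9 and 68.99 RPKM in feeders (-4.19 ± 0.40, adjusted p = 2.4e-05). Lif, the cytokine that sustains mouse ES cells, had 8.91, 14.9, 5.18 and 6.12 RPKM in SC1 to SC4 iPS cells, against 26.6, 30.6 and 29.3 RPKM in feeders (-1.71 ± 0.29). The member that rose was Il33, an alarmin (1.36 ± 0.11), and the chemokine Ccl8 did not pass (-0.02 ± 0.35, adjusted p = 0.955). Interferon response and MHC class I genes fell in 14 of 18 cases, with a median of -0.95, and 8 of the 18 fell at least 2-fold. Beside both lists stand 38.8% lower and 18.2% at least 2-fold lower over all genes tested. B2m, the light chain of MHC class I, had 163, 313, 144 and 161 RPKM in SC1 to SC4 iPS cells, against 689.7, 569 and 624 RPKM in feeders (-1.75 ± 0.26). Isg15, an interferon-induced ubiquitin-like protein, fell as well (-2.09 ± 0.10).

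Several of the genes named were higher in SC3 and SC4 than in SC1 and SC2, and the many such genes of chromosome 11 are described below. The mean level of the whole interferon and MHC list was 3.54, 3.41, 3.87 and 3.75 in SC1 to SC4 iPS cells (log2(RPKM + 1)), and B2m did not follow this order. Irf1, an interferon-responsive transcription factor, was the member of its list that rose, with 16.5, 7.1, 36.6 and 38.5 RPKM in SC1 to SC4 iPS cells, against 4.62, 4.53 and 5.33 RPKM in feeders (1.88 ± 0.50, adjusted p = 0.00729). Psmb8, a subunit of the immunoproteasome, had 9.16, 5.63, 31.6 and 34.8 RPKM in SC1 to SC4 iPS cells, against 16.9, 16.2 and 17.3 RPKM in feeders (-0.09 ± 0.56, adjusted p = 0.892). The feeders lay between the clones, above SC1 and SC2 and below SC3 and SC4. Gbp1, a guanylate-binding protein, had 1.11, 0.47, 10.9 and 10.4 RPKM in SC1 to SC4 iPS cells, against 0.06, 0.03 and 0.03 RPKM in feeders, and its relative Gbp2 had 5.72, 4.68, 29.1 and 28.8 RPKM in SC1 to SC4 iPS cells, against 15.8, 12.99 and 15.03 RPKM in feeders. Gbp1 passed the test (adjusted p = 0.0243), but not without SC3, SC4 or any 1 of the feeders (0.0504 to 0.0618). Both Gbp genes were named as 2 of the 8 with the largest SD over the SC iPS libraries, with Lars2, Usp26, Cer1, Eif2s3y, Lhx1 and Saa3, so their spread is a description. Usp26, an X-linked ubiquitin protease, had 2.01, 1.39, 19.7 and 15.8 RPKM in SC1 to SC4 iPS cells, against 0.01, 0 and 0 RPKM in feeders. SC3 and SC4 were high again. The acute phase gene Saa3 had 12.4, 51.04, 5.02 and 7.96 RPKM in SC1 to SC4 iPS cells, against 52.2, 51.1 and 70.9 RPKM in feeders, with SC2 next to the feeders.

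Germline genes, some of which pluripotent cells transcribe, rose in 13 of 14 tested cases, with a median of 2.19. Tdrd12, a piRNA pathway protein, had 12.96, 7.12, 10.01 and 9.55 RPKM in SC1 to SC4 iPS cells, against 0, 0 and 0.01 RPKM in feeders (3.42 ± 0.17). Mael, another piRNA pathway protein, had 3.8, 2.71, 12.8 and 7.68 RPKM in SC1 to SC4 iPS cells, against 0, 0 and 0.02 RPKM in feeders (2.75 ± 0.40). Mael was higher in SC3 and SC4 than in SC1 and SC2, and Tdrd12 was highest in SC1.

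Genes of the primed epiblast and primitive streak rose in 13 of 14 tested cases, with a median of 2.47. Their mean level was 2.46, 1.49, 2.76 and 3.42 in SC1 to SC4 iPS cells on the log2(RPKM + 1) scale and 0.50, 0.49 and 0.50 in feeders, and its SD over SC iPS libraries, 0.80, was the largest of the 38 lists. T (brachyury), the T-box factor of the streak, had 7.26, 4.12, 7.68 and 13.4 RPKM in SC1 to SC4 iPS cells, against 0.01, 0 and 0.02 RPKM in feeders (3.08 ± 0.29, adjusted p = 2.21e-05). Cer1, a secreted antagonist of Nodal and BMP, had 7.29, 0.24, 6.17 and 15.3 RPKM in SC1 to SC4 iPS cells, against 0.01, 0 and 0 RPKM in feeders (2.55 ± 0.73, adjusted p = 0.0103). Otx2, an early factor of the primed state, had 6.00, 1.91, 9.78 and 11.6 RPKM in SC1 to SC4 iPS cells, against 0, 0 and 0.01 RPKM in feeders (2.85 ± 0.44). SC4 was highest and SC2 lowest for all 3. The homeobox factor Lhx1 had 4.65, 0.31, 4.49 and 11.9 RPKM in SC1 to SC4 iPS cells, against 0.01, 0 and 0.03 RPKM in feeders, and Gsc (goosecoid) had 2.75, 0.31, 2.65 and 8.96 RPKM in SC1 to SC4 iPS cells, against 0.27, 0.41 and 0.30 RPKM in feeders. SC2 overlapped the feeders for Gsc and came near them for Lhx1. Gsc passed the test (adjusted p = 0.0355), but not without SC1, SC3 or any 1 of the feeders (0.0603 to 0.0894). Fgf5, a marker of the primed epiblast, had 7.75, 2.2, 10.9 and 18.9 RPKM in SC1 to SC4 iPS cells, against 0.33, 0.25 and 0.34 RPKM in feeders. In the other 40 libraries the list mean ran from 0.38 to 2.50, below the values of SC3 and SC4 iPS cells. The 1 gene that fell was Sox4 (-1.54 ± 0.14).

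**Figure D3:**
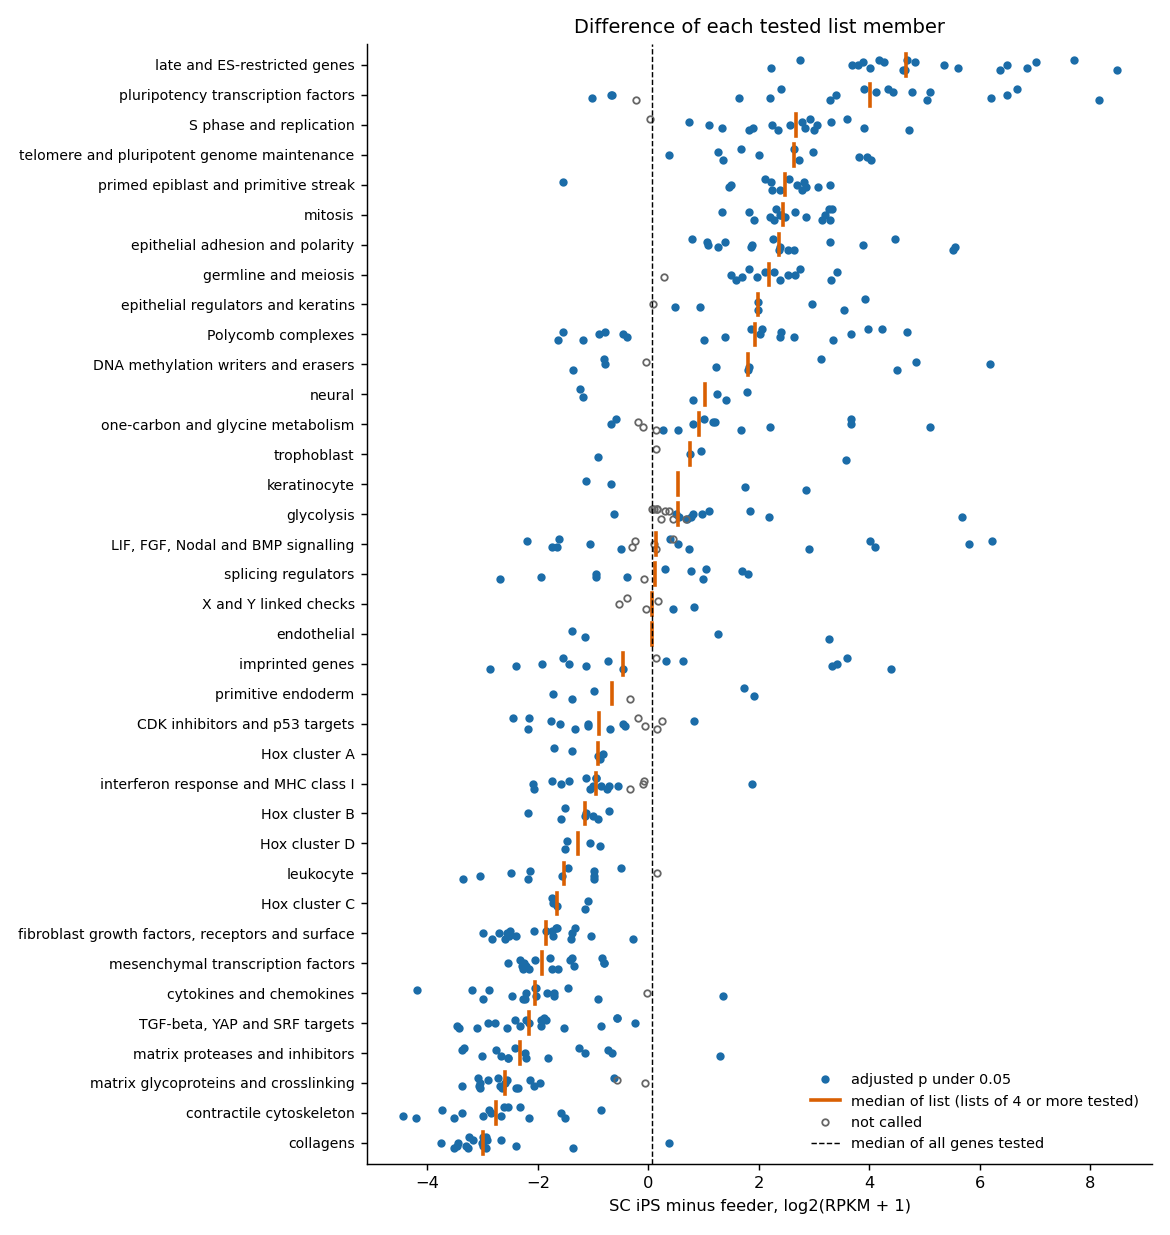
Difference SC iPS minus feeder on the log2(RPKM + 1) scale for tested members of each gene list with at least 4 of them, with filled dots for those past an adjusted p of 0.05, open dots for the rest, bars for list medians and a dashed line for the median of all genes tested. Late and ES-restricted genes have a median of 4.66 and collagens one of -3.00.

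Markers of other cell types had no common direction. Their counts stand beside 41.2% higher and 38.8% lower over all genes tested. Leukocyte genes fell in 11 of 12 tested cases, with a mean level of 1.39, 1.58, 1.20 and 1.22 in SC1 to SC4 iPS cells and 2.82, 2.81 and 2.84 in feeders. C1qa, a complement chain made by macrophages, had 0.49, 1.44, 0.53 and 0.51 RPKM in SC1 to SC4 iPS cells, against 15.8, 16.8 and 16.97 RPKM in feeders (-3.36 ± 0.18). Lyz2, a lysozyme of myeloid cells, ran from 24.4 to 55.4 RPKM in SC iPS cells, against 151 to 164 RPKM in feeders, and Ptprc (CD45) did not exceed 0.67 RPKM. Feeders thus held more of these transcripts, and their part in the falls of cytokine genes was not tested. In the skeletal muscle list 11 of 12 genes were too low to test, among them Myod1, and the 1 tested fell. Of 10 keratinocyte markers 4 were tested, and 2 rose and 2 fell. Krt17, a keratin of skin appendages, had 10.9, 2.61, 8.02 and 7.94 RPKM in SC1 to SC4 iPS cells, against 0.10, 0.06 and 0.04 RPKM in feeders (2.85 ± 0.35), Sfn (stratifin) rose (1.75 ± 0.16) and Ivl (involucrin) fell (-0.67 ± 0.21, adjusted p = 0.0171), though not past the threshold without SC1, feeder 1 or feeder 2 (0.0501 to 0.0567). By contrast Krt5 and Trp63, markers of basal keratinocytes, did not exceed 0.08 RPKM in any of the 7 libraries. Of 13 neural markers 6 were tested, and 4 rose and 2 fell. Tubb3, a neuronal tubulin, had 28.03, 18.2, 22.9 and 21.6 RPKM in SC1 to SC4 iPS cells, against 12.1, 13.4 and 11.7 RPKM in feeders (0.81 ± 0.14), and Nes (nestin), an intermediate filament of neural progenitors, had 7.86, 12.4, 13.4 and 15.4 RPKM in SC1 to SC4 iPS cells, against 29.3, 29.1 and 26.6 RPKM in feeders (-1.18 ± 0.19). Of 4 tested endothelial markers 2 rose and 2 fell. Pecam1, an endothelial adhesion molecule that pluripotent mouse cells also make, rose, at 4.81 to 14.5 RPKM in SC iPS cells, against 0.03 to 0.07 RPKM in feeders (3.27 ± 0.29), while Cdh5, the cadherin of endothelium, was at 0.28 to 0.42 RPKM in SC iPS cells, against 0.19 to 0.24 RPKM in feeders. Of 5 tested trophoblast genes 3 rose and 1 fell. Tfap2c, which germ cells share, rose (3.58 ± 0.21), and Cdx2 was at 0.52 to 0.95 RPKM in SC iPS cells and listed at 0 in feeders. In the primitive endoderm list 2 of 6 tested genes rose and 3 fell. Foxa2, which the streak also expresses, had 2.71, 0.57, 3.19 and 7.53 RPKM in SC1 to SC4 iPS cells, against 0.01, 0.02 and 0.01 RPKM in feeders, again highest in SC4 and lowest in SC2, and Gata4 ran from 0.31 to 1.24 RPKM in SC iPS cells, against 0.16 to 0.23 RPKM in feeders.

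Y-linked genes differed more between clones than between groups. Ddx3y, an RNA helicase gene, had 0.90, 3.51, 5.05 and 9.42 RPKM in SC1 to SC4 iPS cells, against 7.24, 5.7 and 5.17 RPKM in feeders (-0.53 ± 0.48, adjusted p = 0.327). Eif2s3y, a translation factor gene, had 0.67, 1.88, 7.55 and 13.9 RPKM in SC1 to SC4 iPS cells, against 4.27, 3.31 and 2.85 RPKM in feeders (0.17 ± 0.67, adjusted p = 0.827). Over 4 Y-linked genes the median ratio to the feeder mean was 0.168, 0.499, 1.17 and 2.23 in SC1 to SC4. The 4 genes ran from 0.149 to 0.193 in SC1, where the fibroblast genes had a median of 0.142, and from 0.429 to 0.581 in SC2, where the fibroblast genes had a median of 0.281 and an upper quartile of 0.409. In SC3 and SC4 they ran from 0.450 to 2.17 and from 1.56 to 4.00, above the fibroblast medians.

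Genes of chromosome 11 were shifted in SC3 and SC4. This was noticed in the data and is given as a description. For each library the difference of every tested gene from the feeder mean was taken, and the median over a chromosome was read relative to the median over all autosomes. Over 976 genes of chromosome 11 this value was 0.06, 0.04, 0.42 and 0.42 in SC1 to SC4. The other autosomes lay between -0.14 and 0.22 in SC1, -0.13 and 0.17 in SC2, -0.19 and 0.15 in SC3, and -0.21 and 0.14 in SC4. With all 19609 genes above 0 in any library in place of those tested, many of them near 0 in both groups, the values of SC3 and SC4 were 0.20 and 0.19. Among tested genes chromosome 11 lay outside the range of the other autosomes in SC3 and SC4 and inside it in SC1 and SC2. Set directly against SC1, 87.3% of chromosome 11 genes were higher in SC3 and 87.4% in SC4, and so were 40.6% and 45.9% of 10576 genes on the other autosomes. For SC2 against SC1 the shares were 29.7% and 32.1%.

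**Figure D4:**
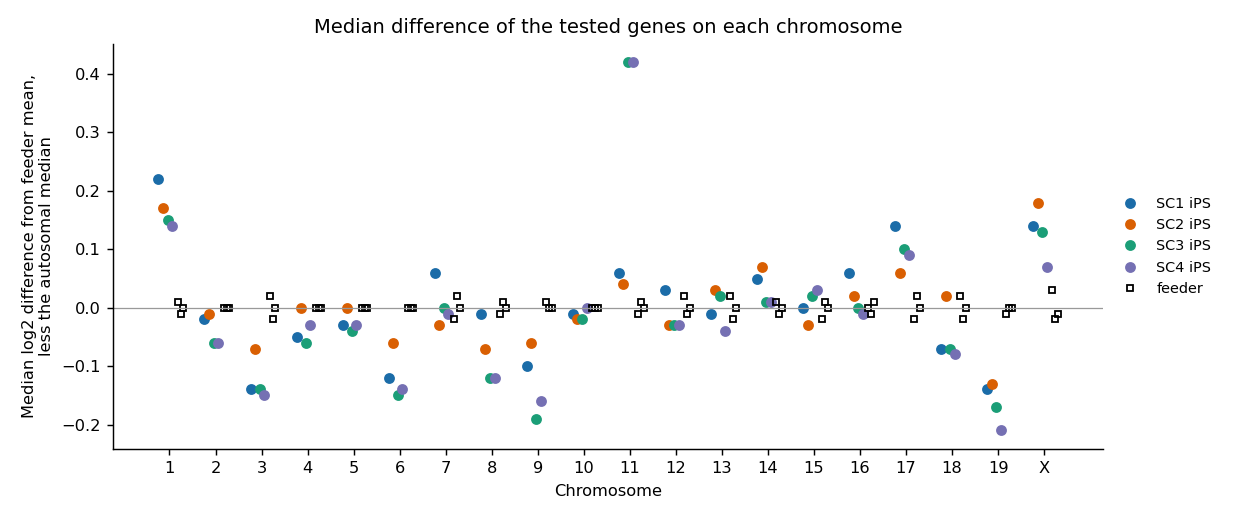
Median log2 difference from the feeder mean over the tested genes of each chromosome, less the median over all autosomal genes, for the 4 SC iPS libraries and the 3 feeders. Chromosome 11 stands at 0.42 in SC3 and SC4 and at 0.06 and 0.04 in SC1 and SC2.

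The shift ran along the whole chromosome. In 10 successive runs of 97 or 98 genes, the median difference of SC3 from SC1 was 0.31 to 0.44, that of SC4 from SC1 0.34 to 0.47, and that of SC2 from SC1 -0.10 to 0.04, each relative to the other autosomes. The same clones had raised values at some of the other sampling points. SC3 had a chromosome 11 value of 0.04 after 14 days with doxycycline, 0.18 after 21 days, 0.31 and 0.35 after a further 1 and 2 days without the drug, 0.26 after 27 days with it, and 0.42 as iPS cells. SC4 had 0.04 at 14 days and 0.32 at 21 days, and 0.42 to 0.43 at the later points and as iPS cells. In SC4 chromosome 11 lay above every other autosome from 21 days on. In SC3 it did so 1 and 2 days after the drug was withdrawn and as iPS cells, but not at 21 days, when other autosomes reached 0.38, nor at 27 days, when they reached 0.26. At 14 days it lay inside the range of the other autosomes in both. SC1 and SC2 stayed between -0.05 and 0.06 throughout, and the 20 SI libraries between -0.05 and 0. Within the comparison with feeders, 44.9% of chromosome 11 genes were called higher, against 40.6% on the other autosomes, with medians of 0.28 and 0.03. Among the genes given above, Cbx8, Ccl8, Col1a1, Epop, Grb10, Hoxb9, Irf1, Krt17, Krt19, Lhx1, Lif, Pecam1, Stat3, Tex19.1 and Upp1 lie on chromosome 11, and the part of the shift in their values was not tested.

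**Figure D5:**
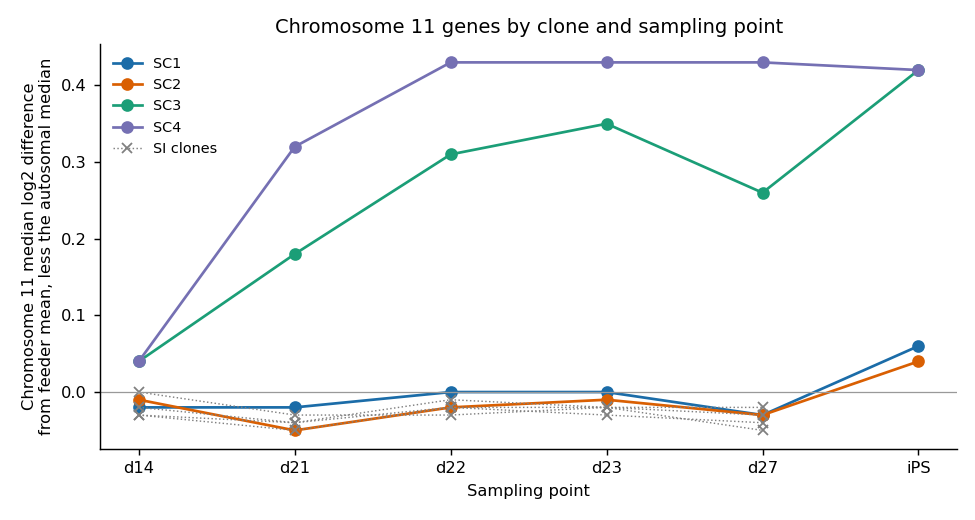
Median log2 difference of chromosome 11 genes from the feeder mean, less the autosomal median, at each sampling point for the 4 SC clones and the 4 SI clones. SC4 is at 0.32 by 21 days with doxycycline and SC3 reaches 0.42 as iPS cells, while SC1, SC2 and the SI clones stay between -0.05 and 0.06.

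Among genes that met the naming conditions given below, all 12 of the largest rises belonged to the lists described. Those lists were chosen with earlier results of these data known, so this is a description. Several of the 12 largest falls were outside the lists. Ptx3, a secreted pentraxin, had 1.36, 4.81, 1.6 and 1.33 RPKM in SC1 to SC4 iPS cells, against 56.00, 49.4 and 61.6 RPKM in feeders (-4.22 ± 0.30, adjusted p = 7.11e-06). Ccdc80, a secreted matrix protein, had 4.69, 13.6, 4.57 and 4.77 RPKM in SC1 to SC4 iPS cells, against 118, 113 and 113 RPKM in feeders (-4.01 ± 0.32). The serine protease gene Prss23 fell (-4.08 ± 0.38), as did Prss23os (-4.22 ± 0.40), annotated as its opposite strand transcript. No source used here states whether counting used strand, so reads of this pair cannot be told apart. Ccn4, a matricellular protein (-3.73 ± 0.40), C1qtnf3, a secreted C1q family protein (-3.72 ± 0.31), and Galnt18, a glycosyltransferase (-3.64 ± 0.30), completed the 12 with members of the fibroblast and cytokine lists. SC2 was the highest SC iPS library for each of Ptx3, Ccdc80, Prss23, Ccn4, C1qtnf3 and Galnt18.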

How the data were processed

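RNA sequencing values came as 1 table of the series. The unit of the deposited values is not stated in the sources used here, and they were read as RPKM, reads scaled by gene length and library size, because values times exon length, summed over genes, came to 0.788 to 0.985 of the total that RPKM would give. Per the submitters' processing notes, CASAVA 1.8 and mm9 were used, with no role stated; the aligner, the counting and the use of strand were not given in the sources used here. Samples were grouped by their titles. Genes with at least 1 RPKM in at least 3 of the 7 libraries were tested on log2(RPKM + 1) with limma 3.58.1 (R 4.3.3), an empirical Bayes linear model with trend, 2-sided, with Benjamini-Hochberg adjustment over all genes tested. The script was tested on simulated data. Python 3.11.15 with numpy 2.4.6, pandas 2.3.3 and matplotlib 3.10.9 made summaries and figures. Genes were named by a rule: the 12 largest rises and falls, up to 4 members a direction for each list, the highest uncalled and the smallest called member, the 8 genes most variable among SC iPS libraries, and members of lists accounted for whole. Some genes that this rule names are not reported here. Members and lists were chosen with earlier results of these data known. Alternatives were another pseudocount, no filter, rescaling, a replicate block, averaged feeders, group weights and leaving out each library. Chromosomes came from GENCODE M21, which matched 20750 of 22632 gene IDs.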

Additional observations from a re-analysis of the deposited data

Results flagged for a closer look

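In 37 of the 167 genes named, 1 of the 4 SC iPS libraries lay farther from the nearest other than Dixon's critical share of the group's range. Chance alone gives this in about 1 in 20 independent groups. Genes of the same libraries are not independent, and some were picked for their spread among these libraries. The count is therefore a description and cannot be set against that rate. In most of them the library was SC2. Its RPKM was the highest in Acta2 (269), Actg2 (20.2), B2m (313), C1qa (1.44), Ccdc80 (13.6), Ccn2 (68.3), Ccn4 (12.5), Col1a1 (289.9), Col5a1 (58.3), Col5a2 (69.0), Csf1 (67.8), Cxcl14 (7.70), Galnt18 (3.78), Grb10 (12.03) and Ivl (1.6). It was likewise the highest in Lars2 (1564), Mbnl1 (9.69), Mbnl2 (23.3), Myl9 (73.2), Pdgfrb (18.1), Prss23 (26.9), Prss23os (80.6), Ptx3 (4.81), Saa3 (51.0), Snai2 (6.89), Tgfb3 (4.66), Thy1 (140.3) and Timp3 (10.2). It was the lowest in Cdh1 (28.1), Lefty2 (35.1), Mcm3 (111), Tert (2.37) and Tgfbr1 (5.33). The other libraries that stood alone were SC3 for Isg15 (44.9 RPKM), SC3 for Peg10 (67.0 RPKM), SC1 for Tcl1 (26.3 RPKM) and SC1 for Tfap2c (18.6 RPKM).

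Of the 38 list levels, mean log2(RPKM + 1) over a list, 10 were set apart in the same way, each by SC2. SC2 was highest for collagens at 4.23, matrix glycoproteins and crosslinking at 5.85, contractile cytoskeleton at 5.47, and TGF-beta, YAP and SRF targets at 3.71. SC2 was lowest for late and ES-restricted genes at 4.76, epithelial adhesion and polarity at 1.81, epithelial regulators and keratins at 1.5, mitosis at 4.6, Polycomb complexes at 3.35, and one-carbon and glycine metabolism at 4.14. In all 10 lists SC2 lay nearer to the feeders than the other SC iPS libraries did. How much fibroblast RNA the SC2 library holds was not tested.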

How the results depend on the processing

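The number of genes called stayed within 1.5 times of 9760 under every alternative run: 9762 with a pseudocount of 0.1, 12531 with no filter on low values, 10091 after rescaling by the median ratio, 7201 with the feeders averaged to 1 sample, 9913 with group weights, 10616 with rescaling and without SC2 together (chosen after seeing the data), and 9022 to 10625 with each library left out. The replicate numbers shared by titles did not pair the samples, since deviations of same-numbered SC iPS and feeder libraries correlated at 0.016, -0.044 and -0.046; with the number as a block 9001 genes were called, Bmp4 passed, Col18a1 and Tgfbr1 no longer passed, and the uncalled Ccl8 (0.14), Dcn (0.06), Eif2s3y (-0.36) and Krt19 (-0.06) changed sign. With the feeders averaged, 14 of 141 named genes called did not pass, among them Cer1, Lhx1, Usp26, Irf1 and Mmp3, and 8 primed and streak genes were called higher. No named gene that was called changed sign under any alternative.

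With no filter on low values the chromosome 11 value was 0.20 in SC3 and 0.19 in SC4. With a pseudocount of 0.1 in place of 1, the difference in mean level moved by more than the SD of the SC iPS libraries in 24 of 38 lists and changed sign in 3, splicing regulators (0.01, from -0.02), skeletal muscle (0.26, from -0.08) and the X and Y linked genes (-0.10, from 0.08). It was 4.44, against 2.41, for epithelial adhesion and polarity, 4.03, against 2.04, for the primed epiblast list and -2.20, against -1.48, for leukocyte genes. With 1 library left out, differences that were not called changed sign in 11 genes, over ranges of -0.35 to 0.19 for Ccl8, -0.16 to 0.04 for Cdkn1b, -0.37 to 0.14 for Dcn, -0.01 to 0.10 for E2f1, -0.36 to 0.69 for Eif2s3y, -0.03 to 0.22 for Fgfr2, -0.57 to 0.23 for Gbp2, -0.15 to 0.43 for Krt19, -0.10 to 1.45 for Lars2, -0.07 to 0.02 for Mbd3 and -0.45 to 0.36 for Psmb8. With rescaling and without SC2, Gbp2 was at 0.17, Lars2 at -0.17 and Psmb8 at 0.30. The cause of these changes was not tested. Without read totals, the precision of low values is unknown.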
